A study of Mus musculus with 18 samples.

Results

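The cells described here were Cpa3 Ctla2a gamma-delta-like double-negative thymocytes, T cells of the thymus with little CD4 and little CD8 on their surface. They were chosen by antibody and RNA counts: a CD4 antibody value of at most 6.3 and a CD8A antibody value of at most 6.1 (log2 of the count scaled to the median antibody total per cell, plus 1), at least 3 UMIs summed over Cpa3, Ctla2a, Alox5ap and Gem, and at most 2 UMIs summed over S100a6, S100a4 and Ly6c1. A UMI, or unique molecular identifier, stands for 1 captured molecule. This rule took 176 of the 1331 cells in the files, all with different cell barcodes. The other cells fell into 225 remaining double negatives that had fewer than 3 UMIs of those 4 genes, 150 S100a6 Ly6c1 double negatives above the limit for those 3 genes, and 780 cells above the CD4 or the CD8A limit.

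The study asked how thymocytes with a fixed T cell receptor differ between hosts that select them negatively, positively or not at all, and read RNA and surface antibody tags of the same cells with the 10x Genomics 5' v2 chemistry. Donor marrow carried the transgenic receptor OT1, which sees an ovalbumin peptide on MHC class I, or OT2, which sees one on MHC class II, and both were marked CD45.1.2. It made up 30% of the transplant, beside 70% wild-type CD45.1 competitor marrow, and all mice were labelled female, B6 and 14 weeks of age and were taken 6 weeks after transplant. The sorting gate took donor (CD45.1.2) cells with both transgenic chains (Vα2, Vβ5) and little CD44, and all 6 mice were labelled with the same 10x lane and told apart by hashtags. The 3 OT1 mice were a NoSelection host (b2m KO, which lacks MHC class I on the host's cells), a NegSelected host (RIPmOVA, which makes membrane-bound ovalbumin under the Ins2 promoter) and a PosSelected host (wild-type C57BL6/Ncr). The 3 OT2 mice were a NoSelection host (MHCII KO in the treatment label, b2m KO in a comment, of which the treatment label was used), a NegSelected host (RIPmOVA) and a PosSelected host (wild-type C57BL6/Ncr). There was 1 mouse per receptor and host, none pooled, so differences between hosts within a receptor have no replicate check. The knockouts are those of the hosts, and the labels name none for the donor or competitor marrow.

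Gamma delta T cells carry a receptor made of a gamma and a delta chain and leave the thymic developmental path early, at the double-negative stage, without passing through the CD4 CD8 double-positive stage. A part of them acquires a programme for interleukin 17 in the thymus, in which the transcription factors Sox13 and Maf and the kinase Blk take part in mice. Transgenic alpha beta receptors are expressed too early, and thymocytes of such mice are known to hold double-negative cells with features of the gamma delta lineage. Of the marker genes, Cpa3 encodes a carboxypeptidase best known from mast cell granules, Alox5ap a membrane protein needed for leukotriene synthesis, Gem a small GTP-binding protein, Ctla2a an inhibitor related to the propeptide of cysteine proteases, and Angpt1 a ligand of the receptor Tek.

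Surface proteins were read through antibodies that each carry a DNA barcode of 15 bases, which is what the sequencer counted. The barcodes of the antibodies that define the cells (CD4, CD8A), that test their gamma delta label (TCRGD) and that differed between OT1 and OT2 cells (FR4, CD24) are given below, with the whole barcode in capitals. Over all 121 barcodes matched to antibodies in the files, any pair differed at 4 bases or more.
CD4: AACAAGACCCTTGAG
CD8A: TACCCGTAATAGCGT
TCRGD: AACCCAAATAGCTGA
FR4: TGATCTAAGGTATGC
CD24: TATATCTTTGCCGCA

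RNA UMIs ran from 525843 to 1867488 per mouse over all cells. The median depth of a member was 5214 RNA UMIs, the remaining double negatives 4411, the S100a6 Ly6c1 double negatives 6371 and the cells above the limits 3352. Their median antibody UMIs were 4854, 3354, 4736 and 4456 per cell in the same order. The OT1 members had 444344 RNA UMIs in 82 cells in the NoSelection mouse, 377543 in 53 cells in the NegSelected mouse and 188664 in 26 cells in the PosSelected mouse. The OT2 members were few, with 79990 RNA UMIs in 8 cells, 18976 in 2 cells and 40025 in 5 cells in the NoSelection, NegSelected and PosSelected mice. They were also among the deepest cells of their mice: the median member stood at percentile 83.3, 93.5 and 97.6 of its mouse's RNA UMIs, against 46.9, 54.4 and 52.8 in the OT1 mice. All 5 OT2 PosSelected members were over the 95th percentile, and the part of depth, or of 2 cells read as 1, in the OT2 results was not tested.

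The label was checked against marker genes over all members. All 5 gamma delta T markers (Sox13, Trdc, Trgc1, Trgc2, Trgc4) were present at 10 CPM (UMIs of a gene scaled to a common total, counts per 1e6) or more, and their summed level was 2926 CPM, with 2025 to 3181 CPM over the 5 mice with at least 5 members. These gamma delta T markers summed to 2720 CPM in the S100a6 Ly6c1 double negatives, 1337 CPM in remaining double negatives and 242 CPM in cells above the limits. Of mast cell and basophil markers, 10 of 10 were at 0 in members, among them Fcer1a, Ms4a2 and Gata2, although Cpa3 was the leading gene. Of NK and innate lymphoid cell markers 5 of 5 were at 0, and of B cell markers 4 of 4. Myeloid markers had UMIs for 2 of 5 genes, 3.48 CPM in sum. Erythroid markers had UMIs for 1 of 4 genes and thymic epithelial markers for 1 of 4, in which Epcam had 19.1 CPM (12.5 to 24.98 CPM over mice). Of early progenitor markers Flt3 and Cd34 were at 0 and the rest summed to 62.6 CPM. Ptcra, the partner of the beta chain at the DN3 stage, and the recombinase genes Rag1 and Rag2 were at 0, as was Zbtb16, which defines invariant NKT cells. The other markers listed with them were detected. The other 2 invariant NKT cell markers summed to 87.0 CPM, and the other 4 DN3 markers to 80.9 CPM. The 3 genes listed with Rag1 and Rag2 summed to 17.4 CPM. A gene at 0 among 1149542 member UMIs may still be present at up to 2.61 CPM.

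The constant gene of the delta chain, Trdc, had 1040 CPM in members, 662 CPM in the remaining double negatives, 1010 CPM in the S100a6 Ly6c1 double negatives and 206 CPM in cells above the limits. At an equal depth of 2000 UMIs per cell, 72.0% of members had a Trdc UMI, against 16.3% of the cells above the limits, which as CD4 or CD8 T cells should lack the receptor (93.8% and 23.3% before thinning; 1, 20, 0 and 122 cells of the 4 classes in the order above were too shallow). A UMI of any gamma chain constant gene was present in 82.3% of thinned members, 50.2% of remaining double negatives, 84.7% of S100a6 Ly6c1 double negatives and 2.74% of cells above the limits. Trac, the constant gene of the alpha chain, was present in 16%, 44.9%, 16.7% and 68.2% in the same order. These shares pool the mice, and OT1 mice gave 161 of 176 members but 346 of 780 cells above the limits. Before thinning, Trdc was present in 50.6%, 34.4% and 49.2% of cells above the limits in OT1 mice (NoSelection, NegSelected, PosSelected). In OT2 mice it was present in 10.5%, 2.74% and 4.33% of them. Trac was present in 34.1%, 39.6% and 46.2% of unthinned OT1 members, against 33.9%, 55% and 54.8% of OT1 remaining double negatives. Since RNA of these cells chose the members, these levels are a description and were not tested.

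The gamma delta receptor antibody did not follow the RNA. TCRGD read 3007 CPM of antibody UMIs in members, 3356 CPM in remaining double negatives, 3152 CPM in S100a6 Ly6c1 double negatives and 3361 CPM in cells above the limits. The hamster isotype control read 397, 424, 489 and 425 CPM in the same order. TCRGD therefore lay above its isotype in every class, and members were not higher than cells above the limits. The Vγ1.1 antibody likewise read 2431 CPM in members and 2940 CPM in remaining double negatives. The name gamma-delta-like thus rests on RNA and not on the surface receptor.

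The question of where these cells occur was answered by their share in each mouse. In OT1 mice they made up 26.8% of all cells (82 of 306, exact Clopper-Pearson 95% interval 21.9 to 32.1%) in NoSelection, 26.0% (53 of 204, 20.1 to 32.6%) in NegSelected and 9.22% (26 of 282, 6.11 to 13.2%) in PosSelected. In OT2 mice they made up 7.41% (8 of 108, 3.25 to 14.1%), 1.13% (2 of 177, 0.137 to 4.02%) and 1.97% (5 of 254, 0.642 to 4.53%) in NoSelection, NegSelected and PosSelected. Every OT1 mouse was above every OT2 mouse. The mean was 20.7 ± 9.92% in OT1 mice and 3.502 ± 3.41% in OT2 mice (SD, n = 3 each), a difference of 17.2 points with an exact two-sided permutation p of 0.1, which is the smallest that 3 mice against 3 can give. Intervals here and below cover counting error only.

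The OT1 hosts stood closer together when members were counted among double negatives alone, and the OT2 hosts further apart in points. Double negatives were 72.9%, 68.6% and 29.4% of cells in the OT1 NoSelection, NegSelected and PosSelected mice, and members were 36.8%, 37.9% and 31.3% of those double negatives. Over all cells, the OT1 NoSelection mouse exceeded the PosSelected mouse by 17.6 points (Newcombe interval 11.5 to 23.5), but among double negatives by 5.45 points (-6.78 to 16.5), an interval that includes 0. The NegSelected mouse exceeded the PosSelected mouse by 16.8 points of all cells (9.96 to 23.8) and 6.53 points of double negatives (-6.53 to 18.7). In OT2 mice, members were 15.7%, 6.45% and 21.7% of double negatives, and NoSelection minus PosSelected was 5.44 points of all cells (1.02 to 12.1) and -6.05 points of double negatives (-27.6 to 11.2). Among double negatives the OT1 mice averaged 35.3 ± 3.5% and the OT2 mice 14.6 ± 7.70% (SD, n = 3 each), 20.7 points apart without overlap (exact permutation p 0.1).

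**Figure D1:**
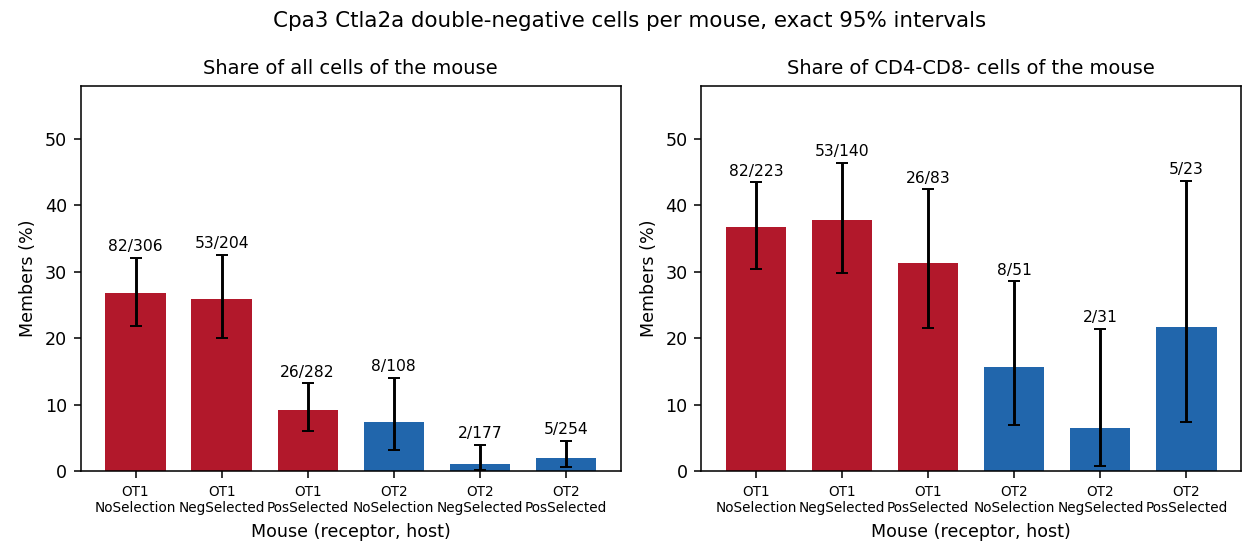
Bars give the percentage of members per mouse among all cells (left) and among CD4-CD8- cells (right), with exact 95% intervals and the cell counts above them. The 3 OT1 mice (red) lie above the 3 OT2 mice (blue) in both panels, and the lower OT1 PosSelected bar on the left is close to the other OT1 bars on the right.

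Depth enters these shares, because a deep cell reaches 3 UMIs more easily. With each cell thinned to 2000 UMIs, the shares were 24.1%, 30.6% and 7.84% in OT1 and 3.75%, 0.752% and 1.36% in OT2 mice (NoSelection, NegSelected, PosSelected), after 16, 8, 14, 28, 44 and 33 shallower cells were left out. Without the cells over the 95th percentile of UMIs of their mouse, the shares were 26.9%, 24.9% and 8.61% in OT1 and 5.88%, 0.595% and 0% in OT2 mice. OT1 mice stayed above OT2 mice with both changes.

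The 4 genes of the rule were not present alike in all members. Cpa3 supplied 66.4% of their summed UMIs, and 158 of 176 members would have passed on Cpa3 alone. The other 3 genes reached 3 UMIs in fewer cells: 38 for Gem, 32 for Ctla2a and 21 for Alox5ap. Of the members 60 had 1 of the 4 genes, 65 had 2, 30 had 3 and 21 had 4, and 7 had no Cpa3 UMI. The summed count ran from 3 to 69 UMIs with a median of 10.5. The members lay clear of the antibody limits, with 0 within 0.5 log2 units of the CD4 limit and 1 within 0.5 of the CD8A limit.

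Levels of the rule genes in each mouse are given as a description, since they chose the members. Cpa3 had 1555, 1650 and 1034 CPM in OT1 and 538, 685 and 1399 CPM in OT2 members of the NoSelection, NegSelected and PosSelected mice. Gem had 380, 249 and 504 CPM in OT1 and 275, 52.7 and 125 CPM in OT2 members. Ctla2a had 214, 352 and 180 CPM in OT1 members, against 37.5 and 52.7 CPM and 0 UMIs in OT2 members. Alox5ap was similar in this respect, with 180, 183 and 79.5 CPM in OT1 members, against 50.01 and 52.7 CPM and 0 UMIs in OT2 members. So Cpa3 overlapped between the receptors, while Ctla2a and Alox5ap were low or at 0 in every OT2 mouse. The marker Angpt1, which the rule did not read, followed the pair, with 151, 132 and 122 CPM in OT1 members, against 12.5 CPM, 0 UMIs and 24.98 CPM in OT2 members.

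The minimum of 3 UMIs cuts through a gradient. The 18 members with exactly 3 UMIs had 1141 CPM of Trdc, 337 CPM of Trgc1, 209 CPM of Sox13, 217 CPM of Maf and 201 CPM of Trac. The 21 double negatives with 2 UMIs, just outside, had 914 CPM of Trdc, 375 CPM of Trgc1, 302 CPM of Sox13, 238 CPM of Maf and 229 CPM of Trac. Along the summed count, Angpt1 was at 16.1 CPM in members with 3 UMIs, 52.1 CPM in the 66 members with 4 to 9 UMIs and 179 CPM in the 92 members with 10 or more. Maf was at 217, 362 and 149 CPM in the same order. The members with the most UMIs of the 4 genes thus had the most Angpt1 and the least Maf of these 3 bands.

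The S100a6 Ly6c1 double negatives were the closest neighbours of the members. Of those 150 cells, 104 (69.3%) had 3 or more UMIs of the 4 genes and would have been members without the limit on S100a6, S100a4 and Ly6c1, against 5 of 780 cells (0.641%) above the CD4 or CD8A limits. Cpa3 had 970 CPM and Angpt1 117 CPM in them, against 36.2 and 19.96 CPM in the remaining double negatives. Sox13 and Maf were higher in members, with 435 and 220 CPM, than in the S100a6 Ly6c1 double negatives, with 228 and 105 CPM. Without the limit, the shares of all cells were 43.8%, 44.6% and 13.5% in the OT1 NoSelection, NegSelected and PosSelected mice.

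RNA of the members was next set against the remaining double negatives of the same mouse, in the 3 OT1 mice with at least 10 cells of each class. Among 3369 genes with at least 100 UMIs over both classes and outside the rule, 18 (0.534%) were more than 2-fold higher in members in all 3 mice and 9 (0.267%) more than 2-fold lower. Members had more RNA of gamma chain constant genes, of Blk and Etv5 and of Angpt1, and less of Cd28 and of the interferon-induced Ifi27l2a. These folds have no test, since the rule chose the members by RNA of the same cells.

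Angpt1 had 151, 132 and 122 CPM in members, against 32.5, 15.4 and 9.50 CPM in remaining double negatives (NoSelection, NegSelected, PosSelected), a ratio of 7.03 over the 3 mice. Blk, a Src family kinase known from B cells and interleukin 17-producing gamma delta cells, had 369, 397 and 297 CPM in members, against 101, 73.2 and 44.3 CPM. Etv5, an ETS family transcription factor, had 882, 813 and 636 CPM in members, against 257, 193 and 108 CPM. For these 3 genes the lowest member value lay above the highest value of the remaining double negatives. They were chosen as past 2-fold in every mouse, and the share of all 3369 genes without overlap was not counted. The lack of overlap therefore adds no weight. Trgc1, the constant gene of a gamma chain cluster, had 803, 961 and 466 CPM in members, against 251, 266 and 88.7 CPM, a ratio of 4.01. Trgc2 followed with a ratio of 3.64.

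The other named genes that were higher have varied roles. Tuba8, a tubulin, had a ratio of 6.11, Sstr2, a somatostatin receptor, 5.43, Coro2a, an actin-binding coronin, 4.96, and Tmem121, a membrane protein, 4.78. Igfbp4, which binds insulin-like growth factors, had a ratio of 3.94, Crip1, a small LIM domain protein, 3.77, and Aff4, a scaffold of the super elongation complex, 3.15. Igfbp4 had 1690, 2042 and 1712 CPM in members, against 783, 443 and 136 CPM in remaining double negatives.

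Of the genes that were lower, the non-coding transcript Gm2682 stood furthest out, with 4.50, 2.65 and 5.30 CPM in members, against 195, 139 and 149 CPM in remaining double negatives. Those member levels rest on 4 UMIs. Ifi27l2a had 11.3, 21.2 and 42.4 CPM in members, against 76.9, 323 and 95 CPM. Cd28, the costimulatory receptor of alpha beta T cells, had 22.5, 37.1 and 42.4 CPM in members, against 59.1, 112 and 174 CPM. Members were lower in each mouse and the classes did not overlap for these 3 genes, which were chosen in the same way as the higher genes. Gimap3, a GTPase of lymphocyte survival, had a ratio of 0.17. Edem1, Dusp10, Snhg3, H1f2 and Kcnq5 had ratios of 0.31, 0.33, 0.38, 0.40 and 0.44.

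**Figure D2:**
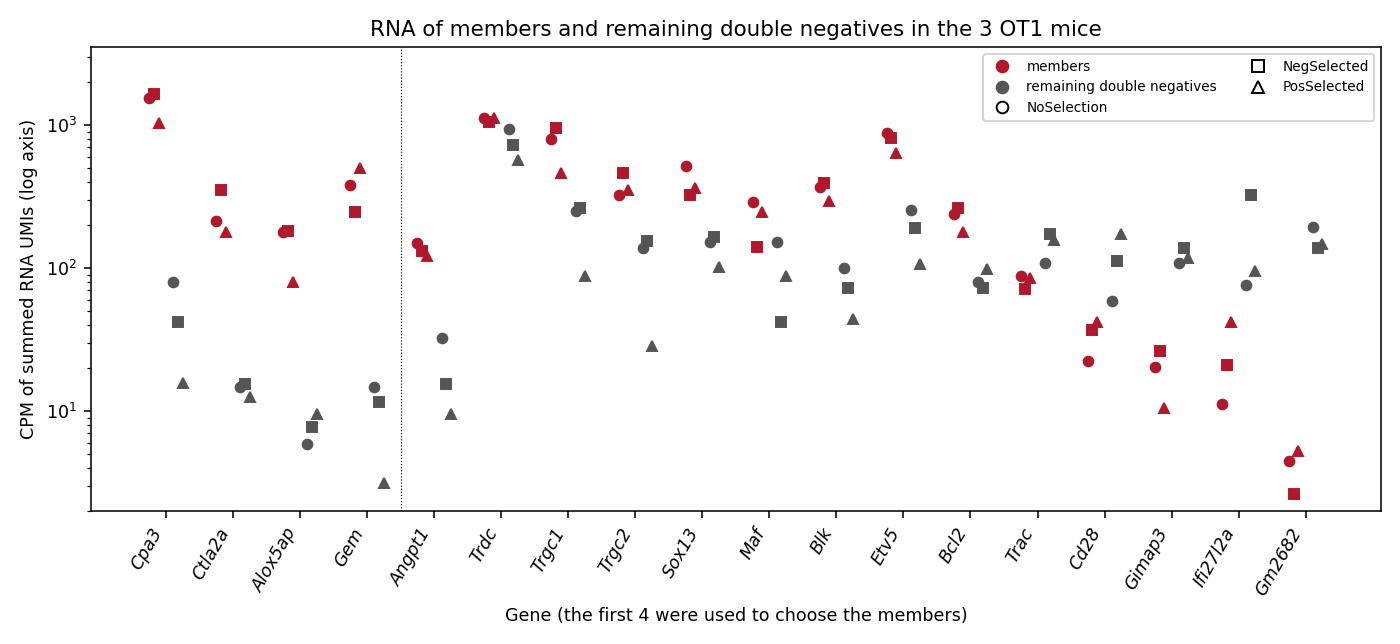
Points give CPM of summed RNA UMIs (log axis) in members (red) and remaining double negatives (grey) of the same 3 OT1 mice, 1 symbol per host, with no error bar. The first 4 genes were used to choose the members. To the right of the dotted line Blk, Etv5 and Angpt1 lie higher in members, and Cd28, Gimap3, Ifi27l2a and Gm2682 lie lower.

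Gene lists set the members against the remaining double negatives and are given as counts beside all 3369 genes. Of those genes 1570 had a ratio above 1 and 1799 below 1, with a median of 0.980. All 5 gamma delta receptor genes with enough UMIs had ratios above 1 (median 2.11), and 2 of them, Trgc1 and Trgc2, were past 2-fold in every mouse. Of alpha beta receptor and CD3 genes 6 of 7 had ratios below 1 (median 0.796), with Trbc1 at 0.477 and Trac at 0.562. All 6 measured genes of the gamma delta 17 programme had ratios above 1 (median 2.67), with Sox13 at 3.02, Cd163l1 at 2.33, Maf at 2.29 and Sox4 at 1.65, beside Blk and Etv5. Il17a, Il23r, Ccr6 and Zbtb16 of the same list had no UMI in any member. The 6 measured genes thus stood without the list's effector gene Il17a, the receptors Il23r and Ccr6 and the transcription factor Zbtb16. Neither list was particular to members. Over all mice, the gamma delta receptor genes summed to 2812 CPM in members, 2639 CPM in S100a6 Ly6c1 double negatives and 1572 CPM in remaining double negatives. The gamma delta 17 genes summed to 2822, 2179 and 1242 CPM in the same order.

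Other lists are given by the same counts. Of interferon-gamma and cytotoxic genes 2 of 2 had ratios above 1 (median 1.41), and of innate lymphoid and NK genes 2 of 2 (median 1.30). Preselection double-positive genes split 1 and 1 (median 0.866). In these lists 0 genes were past 2-fold in every mouse. All 10 cell cycle genes had ratios below 1 (median 0.578), but 0 were past 2-fold in every mouse, and in the NegSelected mouse Top2a had 228 CPM in members, against 100 CPM in remaining double negatives. Of maturation and egress genes 6 of 8 had ratios below 1 (median 0.828), among them S1pr1, the receptor for thymic exit, at 0.360 and Il7r, the interleukin 7 receptor, at 0.360. Receptor signal genes split 3 above and 4 below 1 (median 0.871), with Pdcd1 at 2.13 and Egr1 and Itm2a at 0.343 and 0.406. Early progenitor genes split 2 and 2 (median 1.20), with Gata3 at 1.97. The survival gene Bcl2 was at 2.81 and Mcl1 at 0.943. Of the leukotriene list, Lta4h was the only gene with enough UMIs, at a ratio of 0.870. Alox5 and Ltc4s, which act with Alox5ap in leukotriene synthesis, had no UMI in any member. Ctla2b, the closest relative of Ctla2a, had a UMI in 1 member, and Tek, the receptor of Angpt1, had 25.2 CPM over the members.

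Surface antibodies other than CD4 and CD8A played no part in the rule and were tested. In edgeR's quasi-likelihood test with the mouse as a block, 0 of 113 antibodies (0%) passed an adjusted p of 0.05 between members and remaining double negatives of the 3 OT1 mice. This fit had 2 residual degrees of freedom, and 20 antibodies had an unadjusted p under 0.05. DESeq2 called 10 higher and 13 lower, as did edgeR without the OT1 PosSelected mouse, with 1 residual degree of freedom. With no replicate block, 0 were called higher and 1 lower.

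Antibodies with low unadjusted p pointed the same way in all 3 mice without passing. CD2, an adhesion receptor, read 8358, 8241 and 9898 CPM in members, against 16437, 17044 and 15394 CPM in remaining double negatives (log2 fold change -0.70, SE 0.16, adjusted p 0.170). CD5, a receptor whose level tracks T cell receptor signal strength, read 50408, 67943 and 54759 CPM in members, against 33368, 51638 and 46847 CPM (0.59, SE 0.13, adjusted p 0.170). CD55, a complement regulator, read 2244, 2043 and 2290 CPM in members, against 4937, 4125 and 4410 CPM (-0.85, SE 0.10, adjusted p 0.168). Members and remaining double negatives did not overlap for CD2 and CD55, and for CD5 they overlapped. The share of all 113 antibodies without overlap was not counted.

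Among the other antibodies, KIT, the stem cell factor receptor, had a log2 fold change of 0.83 (SE 0.21), CD49d, an integrin chain, 0.95 (SE 0.26), PD-1, an inhibitory receptor, 0.56 (SE 0.15) and CD48, an adhesion ligand, 0.84 (SE 0.20), all positive in 3 of 3 mice by CPM. Ly6C had -1.18 (SE 0.21) and VISTA, an inhibitory ligand, -1.21 (SE 0.32), both negative in 3 of 3 mice. None of these passed the test. The receptor antibodies lay near 0 on the log2 scale. TCRGD read 3008, 2991 and 2789 CPM in members, against 3576, 3637 and 3161 CPM (-0.05, SE 0.09, adjusted p 0.873), and TCRB had -0.12 (SE 0.10), both lower by CPM in 3 of 3 mice. CD24, which falls as thymocytes mature, had 0.14 (SE 0.11), although its CPM was lower in members in 3 of 3 mice, and -0.05 when scaled to library totals only. CD3 had 0.21 (SE 0.13). GITR had the widest error, -2.46 (SE 1.34), and 69.6% of its member UMIs and 60.7% of those of remaining double negatives came from 1 cell.

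**Figure D3:**
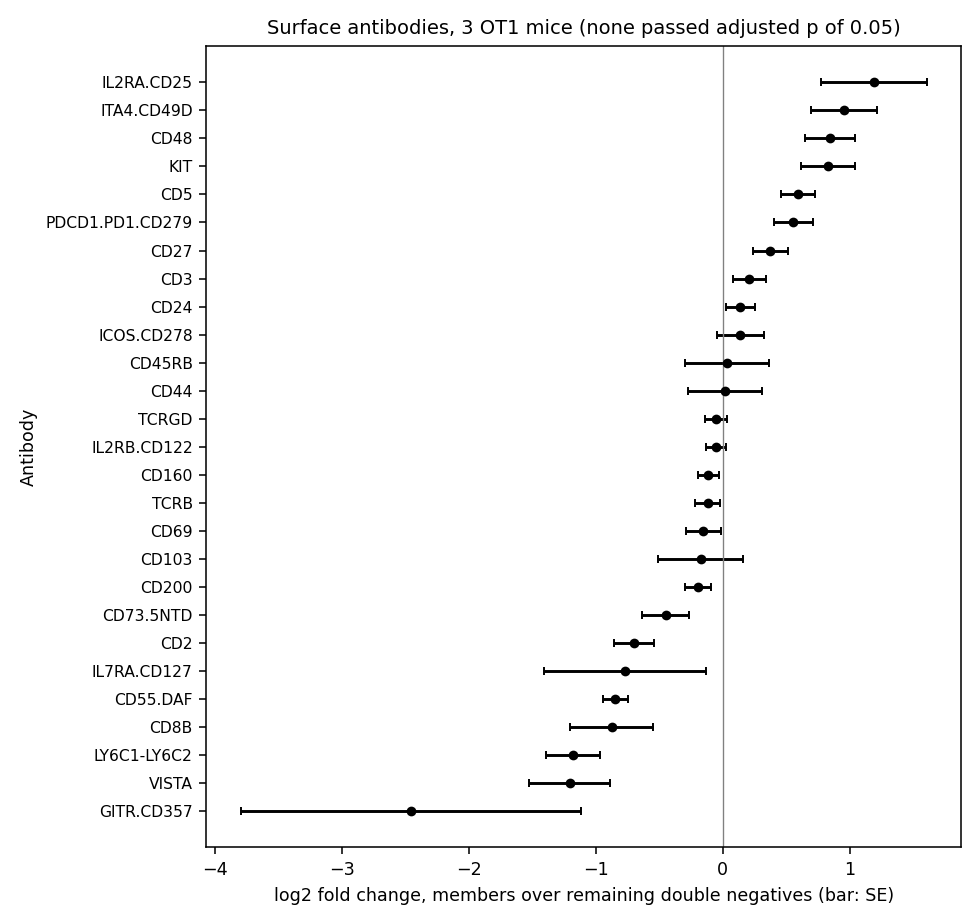
Points give the edgeR log2 fold change of members over remaining double negatives for surface antibodies in the 3 OT1 mice, and bars the SE. CD5, CD48 and KIT lie to the right of 0 and CD55, Ly6C and VISTA to the left, while TCRGD and TCRB lie next to 0; none passed an adjusted p of 0.05.

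The last comparison asked whether the same rule finds the same cells under both receptors. Summed RNA of members was compared between 3 OT1 mice and 2 OT2 mice, since the OT2 NegSelected mouse had 2 members only and was left out of the fit. Of 3770 genes tested with edgeR's quasi-likelihood test, 15 (0.398%) were higher and 12 (0.318%) lower in OT1 members at an adjusted p under 0.05. These 27 genes were 0.716% of those tested. The groups did not overlap for any of them, but nor did they for uncalled genes such as Trdc and Gata3. The share of all tested genes without overlap was not counted, so the lack of overlap adds no weight to the calls. The 27 called genes included variable segments and constant genes of the receptor chains. Of the 7 gamma delta 17 genes tested 0 were called, which at 0.716% over all genes says little about that list. Ctla2a is among the higher genes, but the rule used it, so its call is no result. The OT2 side holds 8 and 5 cells, and their greater depth per cell cannot be told apart from the receptor here.

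The variable segments set the receptors apart. Trgv2, a gamma chain variable segment, had 42.8, 71.5 and 191 CPM in OT1 members (NoSelection, NegSelected, PosSelected), against 1288 and 1624 CPM in OT2 members (NoSelection, PosSelected; log2 fold change -4.05, SE 0.35, adjusted p 5.4e-08). It had a UMI in 15 of 161 OT1 members, against all 15 of 15 OT2 members. Trgv4 had 9.002, 5.30 and 5.30 CPM in OT1 members, against 350 and 575 CPM in OT2 members (-5.88, SE 0.45, adjusted p 8.12e-09), in 4 of 161 and 12 of 15 cells. OT1 members were thus low in both segments in every mouse. The same direction was seen in the remaining double negatives, where Trgv2 had 29.6, 46.2 and 63.3 CPM in OT1 mice, against 652, 612 and 823 CPM in OT2 mice (NoSelection, NegSelected, PosSelected). Whether members differ from those cells in this was not tested.

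Trav15-2-dv6-2, a segment that alpha and delta chains share, had 9.002 CPM, 0 UMIs and 0 UMIs in OT1 members, against 313 and 725 CPM in OT2 members (-6.71, SE 0.58, adjusted p 5.4e-08). Its UMIs came from 1 of 161 and 5 of 15 cells, with 50% of the UMIs of the fitted OT2 members in 1 cell. The Vβ5 segments of the transgenes split by receptor. Trbv12-1 had 2953, 2699 and 3148 CPM in OT1 members, against 650 and 1449 CPM in OT2 members (1.56, SE 0.23, adjusted p 0.000308). Trbv12-2 had 92.3, 5.30 and 5.30 CPM in OT1 members, against 2200 and 2224 CPM in OT2 members (-5.72, SE 0.44, adjusted p 8.12e-09), and 81.8% of its OT1 UMIs came from 1 cell. These segments are closely alike, and counting could split reads between them. OT1 members in all mice carried mainly Trbv12-1.

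Trac was lower in OT1 members, at 87.8, 71.5 and 84.8 CPM, against 363 and 575 CPM in OT2 members (-2.46, SE 0.31, adjusted p 4.65e-05), without overlap. It was lower in OT1 than in OT2 mice in the other classes of cells too, with 258, 408 and 348 CPM, against 3283, 3562 and 2131 CPM, in cells above the CD4 or CD8A limits. Trbc2 was higher in OT1 members (1.31, SE 0.30, adjusted p 0.0380), and the CD3 chain genes Cd247 (-1.10, SE 0.23, adjusted p 0.0201) and Cd3d (-1.09, SE 0.25, adjusted p 0.0380) were lower. Each of these 3 lost its call without the OT1 NoSelection mouse (adjusted p 0.0665 for Trbc2, 0.163 for Cd247 and 0.191 for Cd3d), among others. Of 7 alpha beta receptor and CD3 genes tested, 1 was called higher and 3 lower (median log2 fold change -0.39). Of 6 gamma delta receptor genes, 0 were called higher and 2 lower (median 0.14). Trdc had 1123, 1052 and 1124 CPM in OT1 members, against 675 and 775 CPM in OT2 members, and did not pass (0.60, SE 0.21, adjusted p 0.340). Trgc1 came close (1.42, SE 0.35, adjusted p 0.0564), and Trgc2 had -0.04 (SE 0.29).

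Genes outside the receptor included a cytotoxic granule gene. Gzma, granzyme A, had 866, 1727 and 1071 CPM in OT1 members, against 2275 and 6346 CPM in OT2 members (-1.78, SE 0.29, adjusted p 0.00126). With OT1 NoSelection left out its adjusted p was 0.181, and with OT2 PosSelected left out 0.117. In the 2 OT2 NegSelected members, which were not in the fit, Gzma had 52.7 CPM from 1 UMI. Lef1, a transcription factor of early T cells, had 299, 225 and 307 CPM in OT1 members, against 913 and 600 CPM in OT2 members (-1.53, SE 0.26, adjusted p 0.00187). Of its OT2 UMIs 45.4% came from 1 cell, and the call was lost without the OT2 NoSelection mouse (0.326) or the OT1 NegSelected mouse (0.0625). Il6st, the shared signal chain of the interleukin 6 family, was lower at -2.001 (SE 0.45, adjusted p 0.0380). Rnf43, a ubiquitin ligase of Wnt receptors, had 2 UMIs in all OT1 members, against 163 and 375 CPM in OT2 members (ratio of summed CPM 0.00848, counting interval 0.000979 to 0.0336, adjusted p 0.000123). Rnf43 was also low in OT1 cells above the limits, at 4.03, 3.29 and 4.02 CPM, against 591, 658 and 404 CPM in OT2 mice.

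Other genes were higher in OT1 members. Itga4, the α4 integrin chain, had 284, 371 and 382 CPM in OT1 members, against 75.01 and 49.97 CPM in OT2 members (2.33, SE 0.43, adjusted p 0.00577; 0.0606 without the OT1 NegSelected mouse). Rasgrp2, a nucleotide exchange factor for Rap1, had 223, 260 and 286 CPM in OT1 members, against 37.5 CPM and 0 UMIs in OT2 members, a ratio of 9.94 with a counting interval of 3.36 to 48.5 (adjusted p 0.00441). Rasgrp2 rests on 3 OT2 UMIs. Aff3, a nuclear factor, had 455, 479 and 530 CPM in OT1 members, against 150 and 175 CPM in OT2 members (1.59, SE 0.32, adjusted p 0.0180), and its adjusted p was 0.0548 to 0.0933 without any 1 mouse other than OT2 PosSelected. Dntt, the terminal transferase that adds bases at receptor joints, had 439, 434 and 451 CPM in OT1 members, against 125 and 225 CPM in OT2 members (1.43, SE 0.34, adjusted p 0.0441; 0.389 without the OT2 NoSelection mouse). The 3 OT1 mice were close to each other for Aff3 and Dntt and the OT2 mice lay below.

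Angpt1, the marker that the rule did not read, had 2 OT2 UMIs and a ratio of OT1 over OT2 of 8.31 (counting interval 2.26 to 69.3, adjusted p 0.0380), and its adjusted p was 0.0516 to 0.389 without 1 mouse. Of the rule genes, given with no test, Ctla2a had 262 UMIs in the OT1 and 3 in the OT2 members of the fit, Alox5ap 164 and 4, Gem 358 and 27, and Cpa3 1509 and 99. In the OT1 and the OT2 members alike, the counted UMIs thus came mainly from Cpa3 and Gem.

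Several called genes had almost no OT2 UMIs. Herpud1, of the endoplasmic reticulum stress response, had 92.3, 79.5 and 74.2 CPM in OT1 members and 0 UMIs in the fitted OT2 members, at least 3.36-fold higher against a floor of 3 counts over the OT2 group. Camk2b, a calmodulin-dependent kinase chain, had a ratio of 16.7 (counting interval 4.58 to 138), Slfn2 15.4 (2.72 to 614), H2ac8, a histone gene, 14.3 (2.51 to 568), and Higd2a, of mitochondria, 8.14 (2.21 to 67.9), on 1 or 2 OT2 UMIs each. Hsp90b1, a chaperone of the same compartment as Herpud1, was higher at 1.31 (SE 0.29) and Crip1 at 0.57 (SE 0.13). With terms for receptor and host, 10 genes were higher and 8 lower, and 17 of the 27 calls were shared. Of the 27 called genes, Xist, Trac, Trbv12-1, Trbv12-2, Trgv2, Trgv4, Trav15-2-dv6-2, Rnf43 and Rasgrp2 kept an adjusted p under 0.05 without any 1 of the 5 mice, and each of the others lost it without at least 1.

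**Figure D4:**
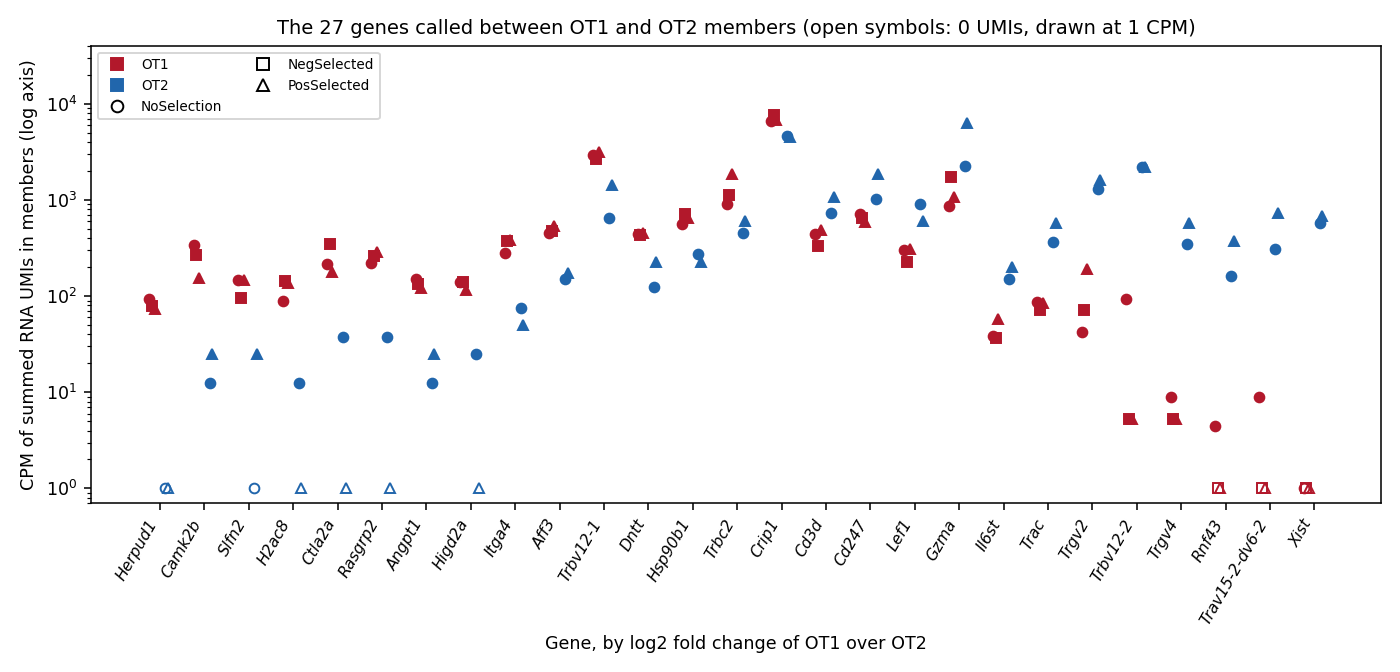
Points give CPM of summed RNA UMIs in members (log axis) for the 27 called genes, in 3 OT1 mice (red) and 2 OT2 mice (blue), 1 symbol per host, ordered by log2 fold change; open symbols at 1 CPM stand for 0 UMIs, and Ctla2a was used to choose the members. For every gene the OT1 and OT2 points do not overlap, and Trgv2, Trgv4, Trbv12-2 and Rnf43 lie far lower in OT1.

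Xist, the non-coding RNA of the inactive X chromosome, had 0 UMIs in all OT1 members, against 575 and 675 CPM in OT2 members. Over all cells it had 9, 1 and 4 UMIs in the OT1 mice, against 254, 299 and 294 UMIs in the OT2 mice (NoSelection, NegSelected, PosSelected). The Y-linked genes Ddx3y, Eif2s3y and Uty had 0 UMIs in every mouse and Kdm5d had 2 in the OT2 PosSelected mouse. The labels give all mice as female, and they do not give the sex of the marrow donors. Whatever lies behind this cannot be told apart from the receptor in any OT1 and OT2 comparison here.

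The gamma delta 17 programme, which includes Sox13, Maf and Blk, held no called gene between the receptors. Of 7 gamma delta 17 genes tested, 0 were called in either direction (median log2 fold change 0.02, against -0.00 over all genes). Of all 3770 genes tested 0.716% were called, so 0 of 7 says little about the programme. Sox13 had 522, 326 and 366 CPM in OT1 members, against 400 and 999 CPM in OT2 members (-0.66, SE 0.32, adjusted p 0.573). Etv5 had 882, 813 and 636 CPM in OT1 members, against 725 and 1024 CPM in OT2 members (-0.13, SE 0.24). Maf had 0.21 (SE 0.40) and Blk 0.56 (SE 0.34). The OT1 and OT2 values of these 4 genes overlapped, which with these errors does not show that their levels are equal. Cd163l1, a scavenger receptor of interleukin 17-producing gamma delta cells, came close (2.65, SE 0.64, adjusted p 0.0510) at 198, 238 and 217 CPM in OT1 members, against 0 UMIs and 99.9 CPM in OT2 members. All 7 cell cycle genes tested had negative values (median -0.73) with 0 called, and in OT2 PosSelected members Rrm2 and Tyms had 0 UMIs. This direction rests on few cells, and 1 cell held 82.6% of the OT2 Rrm2 UMIs. The 10 listed cell cycle genes had 1750 CPM in OT2 NoSelection but 175 CPM in OT2 PosSelected members. OT1 members had 509, 1203 and 1012 CPM (NoSelection, NegSelected, PosSelected).

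Of 115 antibodies, 0 (0%) were higher and 2 (1.74%) lower in OT1 than in OT2 members at an adjusted p under 0.05 with edgeR, and 29 had an unadjusted p under 0.05. FR4, folate receptor 4, known from regulatory T cells, read 2173, 1624 and 1491 CPM in OT1 members, against 7446 and 7009 CPM in OT2 members (log2 fold change -1.92, SE 0.19, adjusted p 0.0174). CD24 read 7327, 8683 and 6977 CPM in OT1 members, against 22608 and 24045 CPM in OT2 members (-1.496, SE 0.16, adjusted p 0.0174). The receptors did not overlap for either antibody, nor did they for uncalled ones such as TCRGD and CD3. The highest cell gave 32.9% and 48.7% of the FR4 UMIs of the OT2 mice, and without it FR4 read 6430 and 4800 CPM there, still above every OT1 mouse. The 2 OT2 NegSelected members, not in the fit, read 4688 CPM of FR4 and 39062 CPM of CD24. Cd24a RNA had -0.43 (SE 0.43, adjusted p 0.871). The adjusted p of both antibodies was 0.0714 without the OT2 PosSelected mouse, and that of CD24 was 0.0577 without the OT1 PosSelected mouse. With terms for receptor and host, which left 1 residual degree of freedom, both antibodies had an adjusted p of 0.168.

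The next antibodies in order of p missed the threshold. The Vα2 antibody read 9897, 8993 and 8799 CPM in OT1 members, against 17912 and 18899 CPM in OT2 members (-0.89, SE 0.14, adjusted p 0.0576), and the TCR beta antibody 4520, 4306 and 3658 CPM, against 7983 and 12022 CPM (-1.17, SE 0.26, adjusted p 0.0794). CD39, an ectoenzyme, read 1276, 1518 and 1483 CPM in OT1 members, against 704 and 799 CPM (1.05, SE 0.18, adjusted p 0.0576). The integrin β7 antibody read 21356, 40417 and 20925 CPM in OT1 members, against 7111 and 4037 CPM (2.44, SE 0.43, adjusted p 0.0576). These 4 had no overlap between receptors, but nor had TCRGD, CD3 and PD-1, which lay further from the threshold. The share of all 115 antibodies without overlap was not counted. CD49d, the protein of Itga4, had 1.16 (SE 0.24, adjusted p 0.0794). TCRGD had -0.19 (SE 0.10, adjusted p 0.290) and CD5 0.17 (SE 0.34).

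**Figure D5:**
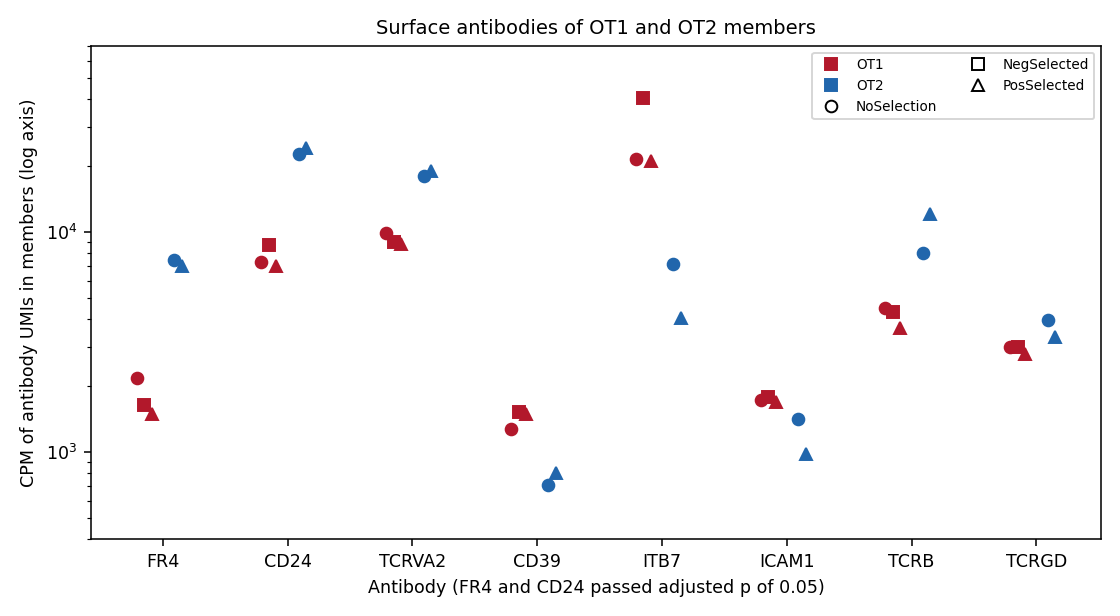
Points give CPM of antibody UMIs in members (log axis) for 8 antibodies, in 3 OT1 mice (red) and 2 OT2 mice (blue), 1 symbol per host, with no error bar. FR4 and CD24 lie lower in OT1 and passed the test, and TCRGD lies close in both.

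Within OT1, members of single mice were compared with the PosSelected mouse by ratios with counting intervals, since each host is 1 mouse. Of 2276 genes with at least 50 UMIs, 5 (0.22%) were higher and 6 (0.264%) lower in NoSelection with an interval that excludes 1.5-fold. Catalase (Cat) had 122 CPM in NoSelection, against 31.8 CPM in PosSelected members, a ratio of 3.82 (1.65 to 10.9). Itgae, the αE integrin chain CD103, had 155 CPM, against 53.0 CPM, a ratio of 2.93 (1.501 to 6.38), and its antibody read 8348 CPM, against 5848 CPM. Paip1 and Tnik had ratios of 3.82 and 3.45, and CT010467.1 2.16. Trgv2 had a ratio of 0.224 (0.121 to 0.401), Rrm2 0.349, Nudc 0.442, the lectin gene Lgals1 0.475 and Trbc2 0.482. For Trgv2, 1 cell held 35.4% of the 82 UMIs of OT1 members. NoSelection and NegSelected members had 19 and 27 Trgv2 UMIs in all, fewer than that cell held. The cell was thus among the PosSelected members, which had 36, and the Trgv2 ratio rests largely on it. Trdc was level, with 1123 CPM in NoSelection and 1124 CPM in PosSelected members.

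Of 2009 genes, 17 (0.846%) were higher and 4 (0.199%) lower in NegSelected than in PosSelected members. The higher genes with the largest ratios were mainly of the cell cycle and of histones. Cenpa, the centromeric histone, had 164 CPM in NegSelected, against 10.6 CPM in PosSelected members, a ratio of 15.5 (4.11 to 131). Ube2c had a ratio of 8.62 (3.22 to 32.5), H1f3 7.27 (3.95 to 14.9), H3c6 7.25 (2.68 to 27.5) and Olfm5 7.995 (2.58 to 40.1). Of 8 cell cycle genes with enough UMIs, 3 were higher and 1, Mcm6, lower (0.370). These values rest on few cells: cells with 10 or more UMIs of the 10 cell cycle genes were 6 of 53 members in NegSelected and 3 of 26 in PosSelected, and the 5 highest cells held 87.2% and 95.8% of those UMIs. Trgc1 was higher in NegSelected at 2.06 (1.63 to 2.63). Trgv2 (0.375) and Luc7l (0.368) were lower, and the Trgv2 ratio again rests largely on the same PosSelected cell. The rule gene Gem is also counted among the lower genes, but since it chose the members its 249 CPM in NegSelected, against 504 CPM in PosSelected members, is a description only.

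Of 113 antibodies, 5 (4.42%) were higher and 3 (2.65%) lower in NoSelection than in PosSelected members, and 2 (1.77%) were higher and 2 (1.77%) lower in NegSelected. Most of the large ratios came from 1 cell. CD45.1 read 3332 CPM in NoSelection and 4612 CPM in NegSelected, against 60769 CPM in PosSelected members, but 94.6% of the PosSelected UMIs came from 1 cell, and without that cell the members there read 3693 CPM. CD49f read 41050 CPM in NoSelection, against 2997 CPM in PosSelected, and 7288 CPM without its highest cell. GITR read 9053 CPM in NegSelected, against 945 CPM in PosSelected, and 1056 CPM without its highest cell. CD11a, the αL integrin chain, read 50504 CPM in NoSelection, against 23891 CPM in PosSelected, a ratio of 2.11 (2.04 to 2.20), and 39574 CPM without its highest cell. KIT read 3035 CPM in NoSelection and 5280 CPM in NegSelected, against 5425 CPM in PosSelected members. TCRGD was 3008 and 2991 CPM, against 2789 CPM, and both ratios (1.08, 0.957 to 1.22, and 1.07, 0.946 to 1.22) had intervals that include 1.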

How the data were processed

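RNA and surface antibodies were measured in single thymocytes of 6 mice, each with an RNA, an antibody and a T cell receptor library, and the receptor libraries were not analysed here. The RNA and antibody counts used are UMI counts per gene or antibody and cell, deposited by the authors without normalization. Cell Ranger 8.0.1, Seurat and the genome build mm10 are named in the submitters' processing notes. How cells were filtered and hashtags assigned is not given in the sources used here. The lowest number of genes per cell was 506 and the highest mitochondrial share 9.94%. Of 180 antibody names, 127 had a count.

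The members, gene lists and named genes were chosen with earlier results of these data known. The naming rule took, for members against remaining double negatives, up to 12 genes each way by ratio among those past 2-fold in every mouse with at least 10 members. It took up to 8 called genes each way within members, the 5 highest and 5 lowest single-mouse ratios whose interval excludes 1.5-fold, the genes of fixed lists and a fixed set of antibodies. Other genes were named after their values were seen. Antibody values for the limits were log2(1 + count scaled to the median antibody total of 4457 UMIs per cell). Levels were CPM of UMIs summed per mouse and class.

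Antibodies of members and remaining double negatives were tested with edgeR 4.0.16 (TMM, filterByExpr, quasi-likelihood, Benjamini-Hochberg) in R 4.3.3, with the mouse as a block, since both classes came from the same mouse. OT1 and OT2 members were compared in the same way over the mice with at least 5 members. Terms for receptor and host left 1 residual degree of freedom, so the fit reported has receptor alone, the fit with both terms is an alternative, and no host was tested. DESeq2 1.42.0 and limma-voom (limma 3.58.1) were alternatives, and the fits were checked on simulated data. Shares were compared with an exact permutation test in scipy 1.17.1. Intervals cover counting error only. Thinning drew 2000 UMIs per cell. No doublet caller was run, and an alternative left out cells over the 95th percentile of UMIs of their mouse. The mice were separate animals of 1 experiment, and p-values measure the spread between them. Each mouse of a receptor had a different host, so that spread holds differences between hosts as well as between animals. Results for some genes are not reported here.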

Additional observations from a re-analysis of the deposited data

Results flagged for a closer look

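The member share moved in opposite directions between hosts in OT1 and OT2 mice in 3 contrasts, each with 1 mouse per receptor and host, so the difference between receptors was not tested. Among double negatives, NoSelection minus PosSelected was 5.45 points in OT1 and -6.05 points in OT2. Among double negatives, NegSelected minus PosSelected was 6.53 points in OT1 and -15.3 points in OT2. The counting interval of each of these 4 differences includes 0. Among all cells, NegSelected minus PosSelected was 16.8 points in OT1 and -0.839 points in OT2, where the OT2 interval (-3.52 to 2.27) includes 0.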

How the results depend on the processing

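Without the limit on S100a6, S100a4 and Ly6c1 the member share was 43.8%, 44.6% and 13.5% in OT1 NoSelection, NegSelected and PosSelected mice, and with the deepest cells (over the 95th percentile) left out it was 0% in OT2 PosSelected. The OT1 minus OT2 share was 14.1 to 22.9 points when 1 mouse was left out. With a minimum of 4 UMIs, 15 genes were lower in members than in remaining double negatives.

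For antibodies of members against remaining double negatives, edgeR called 0 in either direction with the mouse block. With no replicate block it called 0 higher and 1 lower, with counts capped 0 and 1, with DESeq2 10 and 13, and without 1 mouse 0 to 10 higher and 0 to 13 lower, the highest counts being those without OT1 PosSelected. Uncalled values near 0 changed sign. Scaling to library totals moved the median antibody to -0.18 log2, from 0.01, and gave CD24 -0.0531, CD44 -0.17, CD45RB -0.16 and ICOS -0.0531. limma-voom gave CD44 -0.00224 and CD103 0.000279. With no replicate block CD44 was -0.0892 and CD45RB -0.0717. In cells with at least 3000 UMIs CD44 was -0.0681, and without the deepest cells CD44 was -0.0391 and CD45RB -0.0593. Without 1 mouse, CD44 ran from -0.24 to 0.37, CD45RB from -0.32 to 0.39, ICOS from -0.13 to 0.32 and CD103 from -0.58 to 0.0588.

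For RNA of OT1 against OT2 members, genes higher numbered 51 with no filter, 8 with DESeq2, 4 with limma-voom, 7 with a minimum of 4 UMIs, 10 (beside 8 lower) with receptor and host terms and, without the deepest cells (1 OT2 mouse left), 22, beside 19 lower. Without 1 mouse they numbered 2 (OT1 NegSelected) to 22 (OT2 PosSelected), and genes lower 9 to 19. For antibodies, no filter gave 2 higher, DESeq2 10 higher and 11 lower, limma-voom 3 higher, capped counts 5 and 7, receptor and host terms 0 lower, and leaving out 1 mouse 0 to 4 higher and 0 to 7 lower. The causes were not tested. The fits with receptor and host terms, and those within members with capped counts or without the deepest cells, were chosen after seeing the data. At least 10 members per mouse left no OT2 mouse, so that alternative and the host fits within members were not run. The 8 and 5 OT2 members limit every OT1 and OT2 comparison.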
